A study of Mus musculus with 12 samples.

Results

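Chromatin accessibility was examined at 8 genes of terminal erythroid maturation and organelle clearance, Bnip3l, Ulk1, Foxo3, Bcl2l1, Xpo7, Trim58, Trim10 and Ube2o, in mouse bone marrow at 3 and 18 months of age. Peaks were taken where the peak centre lay inside one of these genes or within 10 kb of its ends, and each went to the nearest of the 8. This gave 119 of the 75281 consensus peaks, 94 of them inside a gene and 25 outside. Of the 119 centres, 11 also lay inside another protein-coding gene (Cox4i2, Npm2, Dok2, Trim15, Sphk1 or Pus1).

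The libraries came from NZO/HILtJ mice, an inbred strain known for obesity and type 2 diabetes, with 3 females and 3 males at 18 months and 3 females and 3 males at 3 months. No treatment or engineered allele is named for any group. The assay was ATAC-seq, in which the Tn5 transposase cuts and tags open DNA, so that the read count over a peak measures how accessible it is. Levels are given in CPM, read counts scaled to a fixed library total after TMM normalization, and changes as log2 fold changes of 18 over 3 months with their standard error (SE).

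Late erythroblasts condense and expel their nucleus, and the young red cells that result then rid themselves of mitochondria, ribosomes and surplus proteins. Bnip3l (also called Nix) is a receptor on the outer mitochondrial membrane that marks mitochondria for autophagy, and Ulk1 is the kinase that starts autophagy. Foxo3 is a transcription factor that drives antioxidant and autophagy genes in maturing erythroblasts, and Bcl2l1 encodes BCL-XL, which keeps them alive. Xpo7 is a nuclear exporter, Trim58 and Trim10 are TRIM family proteins, Trim58 being a ubiquitin ligase that acts on dynein during nuclear expulsion, and Ube2o is a ubiquitin-conjugating enzyme that helps clear ribosomes from reticulocytes.

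Start-site windows from RefSeq on GRCm38.p6 were matched for 5 of the 8 genes, with 3 starts for Bcl2l1, and those of Bnip3l, Xpo7 and Ube2o were not used here. Every one of the 7 matched windows overlapped a deposited peak. The 3 listed starts of Bcl2l1 lay well inside the annotated gene. For the other 4 matched genes, with a start at or near the gene's outer end, the bases upstream of the gene are printed. They run 5′ to 3′ on the gene's strand and stop at the annotated gene. Capitals mark matches, on either strand, to 6 motifs: the GATA site AGATAA, the E-box CAGNTG, the CACCC box of KLF factors CCNCNCCC, the forkhead site TGTTTAC, the STAT site TTCNNNGAA and the AP-1 site TGANTCA.
Trim10, chr17:36869324-36869495, plus strand: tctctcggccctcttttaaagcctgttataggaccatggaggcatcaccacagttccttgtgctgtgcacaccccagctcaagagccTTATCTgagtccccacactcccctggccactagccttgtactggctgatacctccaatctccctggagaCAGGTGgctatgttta
Trim58, chr11:58640215-58640464, plus strand: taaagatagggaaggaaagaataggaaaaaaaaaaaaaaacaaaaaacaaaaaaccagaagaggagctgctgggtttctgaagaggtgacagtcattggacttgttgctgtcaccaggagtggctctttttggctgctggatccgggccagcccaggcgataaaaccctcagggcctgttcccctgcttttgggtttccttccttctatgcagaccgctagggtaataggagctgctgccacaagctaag
Foxo3, chr10:42276696-42276945, minus strand: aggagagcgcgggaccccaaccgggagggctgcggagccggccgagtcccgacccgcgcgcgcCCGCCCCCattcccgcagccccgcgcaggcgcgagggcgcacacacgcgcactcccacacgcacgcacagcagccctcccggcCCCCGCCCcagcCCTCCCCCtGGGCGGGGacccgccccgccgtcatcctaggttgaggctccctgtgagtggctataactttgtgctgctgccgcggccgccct
Ulk1, chr5:110810121-110810331, minus strand: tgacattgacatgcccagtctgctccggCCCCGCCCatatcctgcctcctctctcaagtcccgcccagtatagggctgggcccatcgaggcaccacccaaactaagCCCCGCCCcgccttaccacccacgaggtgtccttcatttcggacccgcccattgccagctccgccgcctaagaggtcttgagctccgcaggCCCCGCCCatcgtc
The Trim10 stretch held 1 GATA match, read as TTATCT, and 1 E-box match. In Trim58 there was no match to any of the 6 as spelled above. Variants of these letters, such as the AGATAG near the 5′ end of the Trim58 stretch, were not counted. The Foxo3 stretch held 4 CACCC matches and Ulk1 held 3. GC content was 53.5% in the Trim10 stretch, 47.6% in Trim58, 76.4% in Foxo3 and 64.9% in Ulk1. Over whole windows of 250 bases before to 50 after a start, the most downstream start of Bcl2l1 had a GATA match beginning at position -41, its middle start had 2 CACCC matches and its most upstream start 1 E-box match, and Trim10 had an AP-1 match beginning at position -56. Among all 32851 windows of that length, 11.2% held the GATA letters, 51.4% the E-box, 49.5% the CACCC box, 3.65% the forkhead site, 8.30% the STAT site and 7.81% the AP-1 site. A match describes the letters and not a bound factor, and the E-box and CACCC letters are too common to mark a gene out.

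Total counts in peaks ran from 7668099 to 12756647 per library. The sequencing runs numbered 6, and 0 of them held libraries of both ages, so run and age cannot be told apart. The labels name bone marrow, while the protocol text describes a sort of CD3e+ CD8+ T cells; 0 peaks lay within 10 kb of Cd8a or Cd8b1, and Cd3e stood at 6.11 ± 0.871 CPM (SD, n = 6) at 18 months and 7.88 ± 1.44 CPM at 3 months. Other T cell genes had higher sums over their windows, among them Cd3d (51.4 and 42.3 CPM), Cd3g (119.8 and 107.8 CPM), Cd247 (127.1 and 144.2 CPM) and Lck (119.0 and 145.4 CPM). All 19 red cell marker genes had peaks, which summed to between 2542 and 4419 CPM per library. The 3-month male library of run 30 stood apart from the other 3-month libraries in its granulocyte and monocyte markers, at 2352 against 1643 to 1852 CPM. Nothing in the labels says outright that each numbered library is its own mouse, so p-values measure the spread between these samples.

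All 8 genes were less accessible at 18 months when the counts of each gene's peaks were summed. Trim10 and Trim58 differed most, with mean levels 46.2% and 40.4% lower, followed by Ube2o at 35.3% and Bcl2l1 at 27.5%. Xpo7 was 21.6% lower, Foxo3 19.6%, Bnip3l 19.3% and Ulk1 11.4%. In every one of the 8, the highest 18-month library lay below the lowest 3-month library. Each passed edgeR's quasi-likelihood test at a Benjamini-Hochberg adjusted p of 0.05. Across all 16470 protein-coding genes tested the same call was made for 29.9%, and 13.8% had lower values without overlap between the ages (2.61% higher). The median log2 fold change was -0.41 over the 8 genes and -0.08 over all genes. In bulk marrow, fewer cells of a type and less accessibility per cell cannot be told apart.

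**Figure D1:**
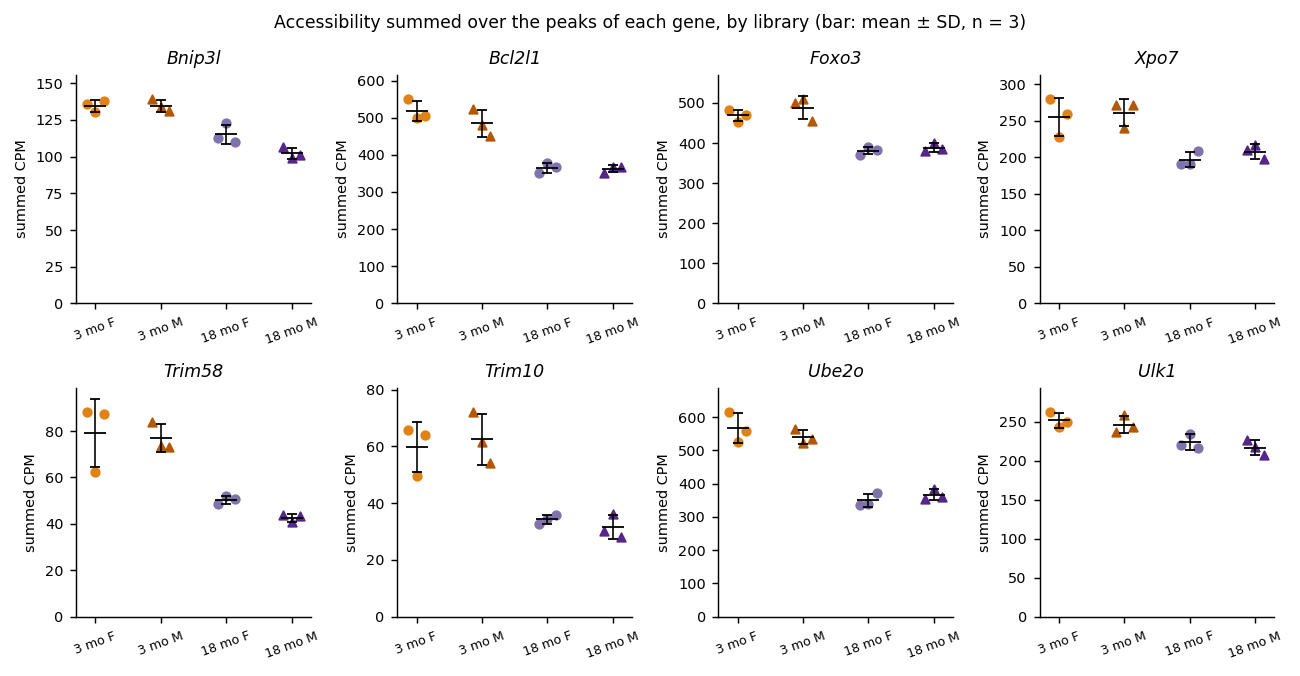
Summed accessibility of each gene in CPM (vertical axis, from 0) for the 12 libraries in 4 groups of age and sex; points are libraries and bars the mean ± SD, n = 3. In all 8 panels the 6 libraries of 18 months lie under the 6 of 3 months, with the largest relative difference for Trim10 (28.1 to 36.2 against 49.6 to 72.0 CPM).

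Single peaks gave the same direction where they were called. Of the 119 peaks, 47 (39.5%) were lower at 18 months by the edgeR test, 0 were higher and 72 were not called. Among all 75164 peaks tested, 11.6% were called lower and 9.43% higher. An unadjusted p under 0.05 was reached by 1 peak with a log2 fold change above 0, and DESeq2 also called 0 peaks higher. The log2 fold change was below 0 at 103 peaks and above 0 at 16, with a median of -0.30 against 0.02 over all peaks. At 28 peaks every 18-month library lay below every 3-month library, a pattern found at 5.04% of all peaks. The reverse was found at 0 of the 119 and at 2.20% of all peaks. With library totals in place of TMM scaling, 36 peaks were called lower and 1 higher, beside 8.82% lower and 14.9% higher over all peaks. With scaling smoothed on abundance, 47 were lower and 0 higher, beside 10.4% and 9.58%.

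The calls were unevenly spread over the genes. Ube2o had 14 of its 21 peaks called lower, Xpo7 11 of 21, Trim58 4 of 5 and Trim10 3 of 4. Bcl2l1 had 6 of 23, and Foxo3 had 6 of 24. Bnip3l had 1 of 8 (12.5%) and Ulk1 2 of 13 (15.4%), shares close to the 11.6% of all peaks. The called peaks were also the wider and stronger ones, with a median width of 1437 bp and a median level of 16.5 CPM, against 830.5 bp and 7.35 CPM for those not called. In the highest quartile of all peaks by mean level, 29 of 39 were called lower (74.4%, against 27.9% of all peaks in that quartile). In the lowest quartile it was 2 of 10, against 2.49% of all peaks there. By position, 10 of 14 peaks inside a gene within 3 kb of its end were called lower (19.1% of all peaks so placed), 31 of 80 deeper inside (10.3%), and 6 of 25 outside (11.7%). For all peaks the position was taken from the nearest protein-coding gene.

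**Figure D2:**
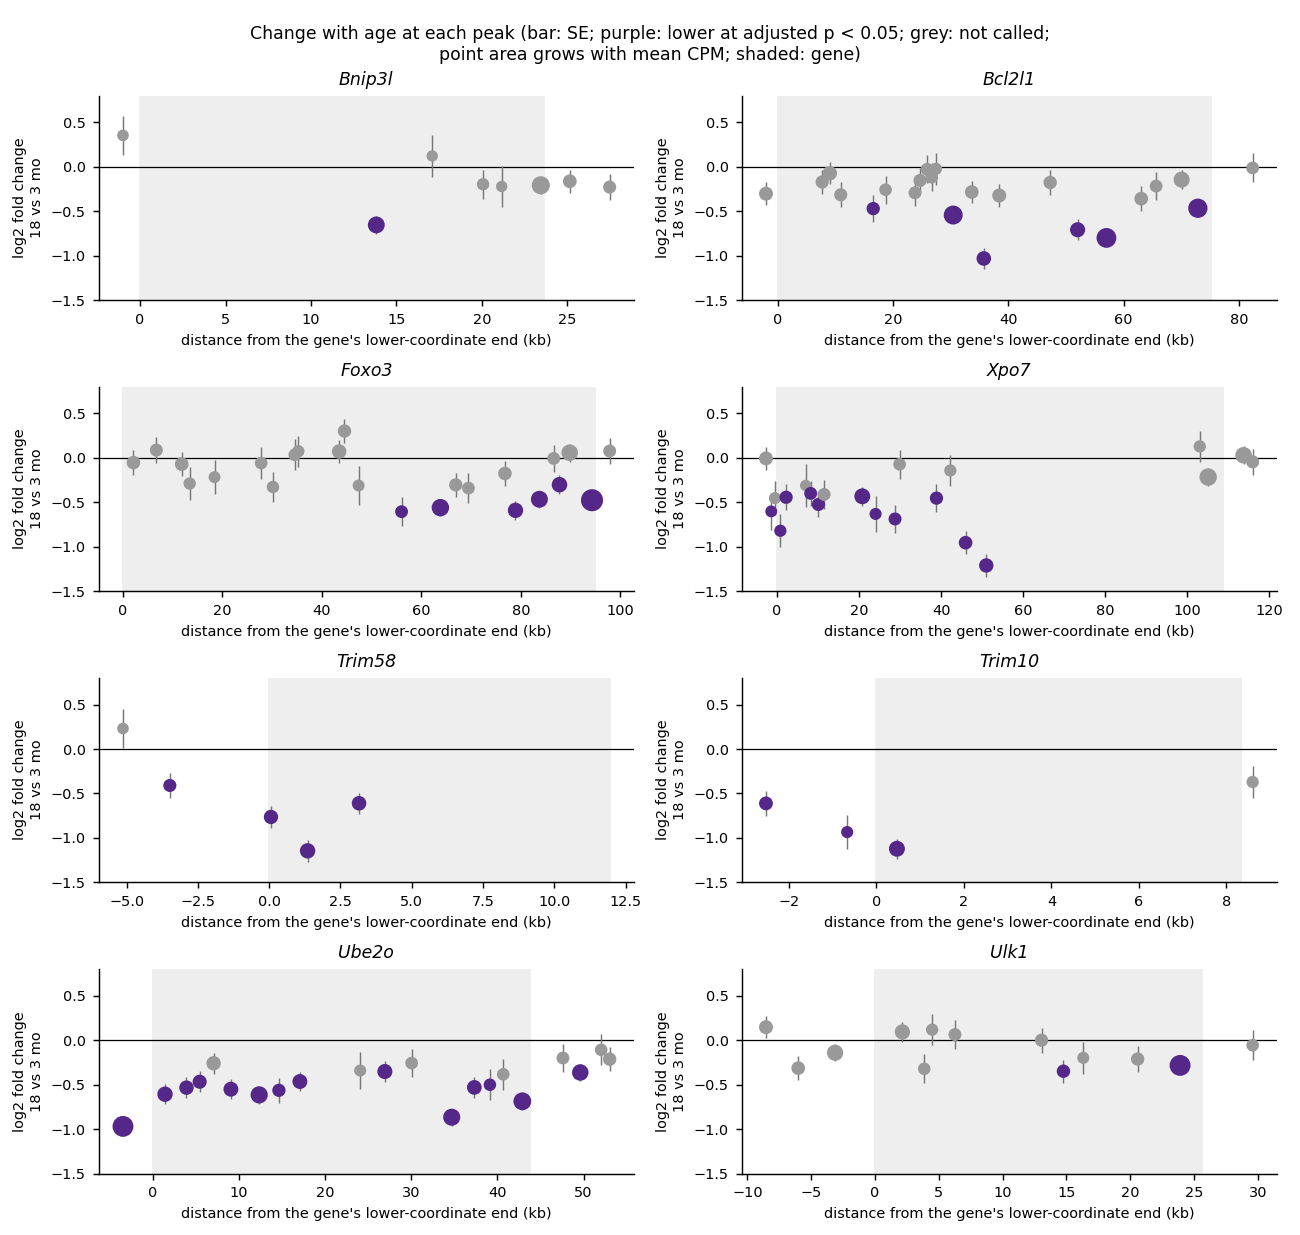
Log2 fold change of 18 over 3 months (vertical axis) at each peak against the distance in kb from the gene's lower-coordinate end (horizontal axis), 1 panel per gene; error bars are SE, purple points were called lower, grey points were not called, and point area grows with mean CPM. Purple points fill most of Ube2o (14 of 21) and few of Ulk1 (2 of 13), and 0 points were called higher.

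Bnip3l (gene ID 12177, chr14:66985238-67008877), the mitophagy receptor, summed to 99.3, 108.3 and 122.8 CPM (lowest, median and highest library) at 18 months and to 130.2, 134.8 and 139.3 CPM at 3 months. The ages did not overlap, and the log2 fold change was -0.31 (SE 0.052; edgeR adjusted p = 0.0001). Only 1 of its 8 peaks was called, chr14:66997022-67001092 inside the gene, 9820 bp from the nearest end. It read 25.5, 27.9 and 31.4 CPM at 18 months and 37.98, 43.3 and 53.2 CPM at 3 months, with no overlap and a log2 fold change of -0.65 (SE 0.099; edgeR adjusted p = 1.61e-06). The strongest peak by mean CPM, chr14:67007577-67009780 at the gene's end, was not called. Its libraries ran from 36.9 to 59.7 CPM at 18 months and from 50.4 to 64.8 CPM at 3 months, and its log2 fold change was -0.21 (SE 0.097; edgeR adjusted p = 0.118). With that peak alone standing for the gene, Bnip3l was not called (-0.21, edgeR adjusted p = 0.0934). With scaling smoothed on abundance, the gene was at -0.19 and its strongest peak at -0.01, and with scaling smoothed on width the called peak was at -0.43 and the strongest at -0.04.

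Ulk1 (gene ID 22241, chr5:110784489-110810120), the autophagy-starting kinase, differed least. It summed to 207.1, 219.3 and 235.1 CPM at 18 months and to 236.9, 246.9 and 262.2 CPM at 3 months, groups that did not overlap but lay close. The log2 fold change was -0.17 (SE 0.042; edgeR adjusted p = 0.00284). The broad peak at its start, chr5:110805988-110810809, read 89.0, 93.5 and 118.7 CPM at 18 months and 101.6, 117.5 and 136.5 CPM at 3 months. The highest 18-month library there exceeded the median of the 3-month libraries, and the log2 fold change was -0.28 (SE 0.090; edgeR adjusted p = 0.0191). The other called peak, chr5:110798641-110799874 inside the gene, averaged 8.19 ± 0.873 CPM (SD, n = 6) at 18 months and 10.4 ± 0.694 CPM at 3 months (-0.35, SE 0.130; edgeR adjusted p = 0.0479). The Ulk1 call was lost with scaling smoothed on abundance (-0.02, edgeR adjusted p = 0.742) and in DESeq2 (-0.09, adjusted p = 0.0642), and library totals gave -0.10. The start peak was also lost with scaling smoothed on abundance (-0.03, edgeR adjusted p = 0.749) or on peak width (-0.04, adjusted p = 0.722), and without the 18-month female library 42 (adjusted p = 0.0650) or male library 40 (adjusted p = 0.0517). The peak inside the gene lost its call with library totals (-0.27, adjusted p = 0.135), with scaling smoothed on width (-0.31, adjusted p = 0.0969) and in 10 of the 12 fits that left out 1 library (-0.38 to -0.32, edgeR adjusted p from 0.0515 to 0.0999).

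Foxo3 (gene ID 56484, chr10:42181845-42276695), the transcription factor, summed to 371.1, 384.1 and 400.6 CPM at 18 months and to 453.4, 476.5 and 509.8 CPM at 3 months. These did not overlap, and the log2 fold change was -0.31 (SE 0.039; edgeR adjusted p = 3.6e-06). Its strongest peak covered the start, chr10:42273377-42278960, and included the stretch printed above. There the libraries read 105.7, 115.0 and 140.5 CPM at 18 months and 134.4, 165.5 and 187.9 CPM at 3 months. Apart from 1 high 18-month library and 1 low 3-month library the ages separated, with a log2 fold change of -0.48 (SE 0.090; edgeR adjusted p = 8.43e-05). The largest called change, -0.60 (SE 0.159; edgeR adjusted p = 0.00458), was at a weak peak inside the gene, chr10:42237385-42238353, at 5.54 ± 1.22 CPM (SD, n = 6) against 8.35 ± 1.26 CPM. With scaling smoothed on abundance, Foxo3 as a whole was at -0.14 and its start peak at -0.21, both still called.

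Bcl2l1 (gene ID 12048, chr2:152758732-152833803), the survival gene, summed to 351.3, 367.4 and 376.9 CPM at 18 months and to 450.6, 502.3 and 550.1 CPM at 3 months. The 18-month libraries lay within a narrow band, wholly below the 3-month ones, and the log2 fold change was -0.46 (SE 0.044; edgeR adjusted p = 1.63e-07). All 23 of its peaks had a log2 fold change below 0, 6 of them called. The strongest was a broad peak inside the gene, chr2:152812387-152819102, with 56.1, 59.8 and 64.9 CPM at 18 months and 87.2, 107.7 and 116.5 CPM at 3 months. It did not overlap between the ages (-0.80, SE 0.088; edgeR adjusted p = 1.43e-09). The largest change was at chr2:152794083-152794884, 34006 bp from the nearest listed start, where 18-month libraries read 8.85 to 12.4 CPM and 3-month libraries 16.6 to 25.1 CPM. Its log2 fold change was -1.03 (SE 0.123; edgeR adjusted p = 1.04e-08). The peak nearest a listed start, chr2:152830468-152832727, was lower by less, at 61.0 ± 10.1 CPM (SD, n = 6) against 84.0 ± 9.02 CPM. The ages overlapped there, because 1 female library of 18 months read 80.4 CPM, and the log2 fold change was -0.47 (SE 0.096; edgeR adjusted p = 0.0003). With scaling smoothed on abundance, the log2 fold change of Bcl2l1 was -0.29 and that of the start peak -0.24, both still called.

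Xpo7 (gene ID 65246, chr14:70662126-70770864), the nuclear exporter, summed to 191.0, 202.4 and 216.7 CPM at 18 months and to 226.9, 264.9 and 279.5 CPM at 3 months. The ages did not overlap (-0.35, SE 0.053; edgeR adjusted p = 3.46e-05). The largest differences lay deep inside the gene. The largest change of all 119 peaks was at chr14:70712573-70713681, 51001 bp from the nearest end, with 6.83, 8.61 and 10.6 CPM at 18 months and 14.3, 20.6 and 26.1 CPM at 3 months. Its log2 fold change was -1.21 (SE 0.130; edgeR adjusted p = 7.9e-10). Next to it, chr14:70707515-70708660, singled out after its values were seen, had a log2 fold change of -0.95 (SE 0.130; edgeR adjusted p = 1.92e-07). The strongest peak, chr14:70765704-70768697, whose centre also lies in Dok2, averaged 39.7 ± 2.96 CPM (SD, n = 6) against 46.2 ± 5.53 CPM and was not called (-0.22, SE 0.097; edgeR adjusted p = 0.105). It passed without the 3-month female library of run 29 (-0.28, adjusted p = 0.0376), while scaling smoothed on abundance or on width gave -0.04 and -0.01, and library totals -0.14. The peak beyond the other end, chr14:70658810-70660077, in Npm2, stood at 11.7 ± 0.830 CPM and 11.7 ± 2.04 CPM (-0.01, SE 0.127; edgeR adjusted p = 0.98). With its strongest peak alone standing for the gene, Xpo7 was not called (-0.22, edgeR adjusted p = 0.0765), and scaling smoothed on abundance gave -0.20, still called.

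Trim58 (gene ID 216781, chr11:58640465-58652404), the ligase of nuclear expulsion, summed to 40.7, 46.1 and 51.8 CPM at 18 months and to 62.4, 78.8 and 88.1 CPM at 3 months. No libraries overlapped, and the log2 fold change was -0.75 (SE 0.081; edgeR adjusted p = 6.99e-07). Its strongest peak and its largest change were the same peak, chr11:58641184-58642439, just inside the gene. It read 11.2, 13.5 and 15.3 CPM at 18 months and 19.6, 33.0 and 34.1 CPM at 3 months, a log2 fold change of -1.15 (SE 0.123; edgeR adjusted p = 7.64e-10). The lowest 3-month value came from the female library of run 29, which also gave the lowest 3-month sum at Trim10. The peak over the start, chr11:58640078-58640976, which holds the printed stretch, was at 10.3 ± 1.76 CPM (SD, n = 6) against 17.6 ± 2.92 CPM, also with no overlap (-0.76, SE 0.124; edgeR adjusted p = 6.37e-06).

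Trim10 (gene ID 19824, chr17:36869496-36877833), the other TRIM gene, showed the largest gene-level difference. Its sums were 28.1, 33.5 and 36.2 CPM at 18 months and 49.6, 62.8 and 72.0 CPM at 3 months, without overlap (-0.89, SE 0.091; edgeR adjusted p = 3.56e-07). A single peak over the start, chr17:36869128-36870799, was both the strongest and the most changed, and holds the printed stretch with its GATA letters. It read 11.9, 17.3 and 19.3 CPM at 18 months and 29.9, 36.3 and 43.0 CPM at 3 months (-1.12, SE 0.113; edgeR adjusted p = 1.54e-10). That peak made up 49.5% ± 4.93 (SD, n = 6) of the gene's counts at 18 months and 58.4% ± 2.37 at 3 months. The start or end peak held 30.7% and 34.1% at Foxo3 and 44.0% and 47.5% at Ulk1. At Bcl2l1 it held 16.7% and 16.8%, at Trim58 22.1% and 22.6%, and at Ube2o 10.4% and 10.8%. The share was higher at 18 months at Bnip3l (44.7% and 41.7%) and Xpo7 (5.79% and 4.53%). Another of the 4 Trim10 peaks has its centre in the neighbouring Trim15.

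Ube2o (gene ID 217342, chr11:116537740-116581503), the ubiquitin-conjugating enzyme, had the most called peaks and the lowest adjusted p of the 8. It summed to 336.6, 357.2 and 385.1 CPM at 18 months and to 522.8, 546.1 and 614.0 CPM at 3 months (-0.63, SE 0.047; edgeR adjusted p = 1.79e-08). The gap between the ages was wider than the spread within either. The strongest and most changed peak, chr11:116530560-116537954, begins outside the gene with its centre in Sphk1, so that it cannot be given to Ube2o alone. It read 63.6, 73.4 and 80.3 CPM at 18 months and 129.2, 138.9 and 166.0 CPM at 3 months, a log2 fold change of -0.97 (SE 0.088; edgeR adjusted p = 1.61e-11). At the opposite end, chr11:116578995-116582254 was at 37.0 ± 2.71 CPM (SD, n = 6) against 59.6 ± 6.35 CPM, again with no overlap (-0.69, SE 0.094; edgeR adjusted p = 1.93e-07). All 21 of its peaks had a log2 fold change below 0, and with the gene body alone Ube2o was still called.

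The 8 peaks just inside it, the farthest out for each gene, had log2 fold changes of -0.61 to 0.23, with 1 called lower, at Trim10. The nearest peak beyond the window of each gene had -0.32 to 0.38, with 1 called lower, 32584 bp from Trim10, and 1 higher, 10407 bp from Xpo7. These counts are near the shares of all peaks, 11.6% lower and 9.43% higher. The largest changes above 0 among the 119 peaks were 0.35 beside Bnip3l and 0.30 inside Foxo3, and neither was called.

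Both sexes were lower with age. At 18 months all females were in run 14 and all males in run 15, so sex and run cannot be told apart at that age. Fitted as 4 groups, all 8 genes were called lower in females (15.3% of all genes, beside 8.62% higher) and all 8 in males (29.2%, beside 4.80% higher), Ulk1 with the least margin in both (edgeR adjusted p = 0.0475 in females and 0.0265 in males). In females 41 of the 119 peaks were called lower (6.20% of all peaks) and 0 higher (5.70%), in males 28 lower (8.18%) and 0 higher (3.21%), with 24 called in both, 17 in females alone and 4 in males alone. The difference between the sexes was not itself called at any of the 119 peaks or 8 genes, as for all but 0.00532% of the peaks tested. Of the interaction terms, 5 peaks had an unadjusted p under 0.05, and the lowest edgeR adjusted p was 0.358. The difference was closest at Bnip3l among the genes, at -0.23 in females and -0.40 in males (interaction -0.17, SE 0.098; edgeR unadjusted p = 0.0954, adjusted p = 0.408). The number of genes called was 6 to 8 in either sex under the other settings, and with 1 library left out 6 to 8 in females and 7 to 8 in males. The female count of peaks was 20 without the 18-month library 35 and 23 without 36. It was 22 without the 3-month library of run 28 and 24 without that of run 31. Each of these fits also has 1 library fewer in a group, and what lowered the count was not tested. The male count was 18 with scaling smoothed on abundance. Shares of all peaks called within a sex under these alternatives are not given here. Sex alone gave 0 called genes and 0 called peaks, with 8 peaks at an unadjusted p under 0.05. Over all features, 0.0186% of peaks and 0.0243% of genes were higher in males, and 0.144% and 0.261% lower.

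**Figure D3:**
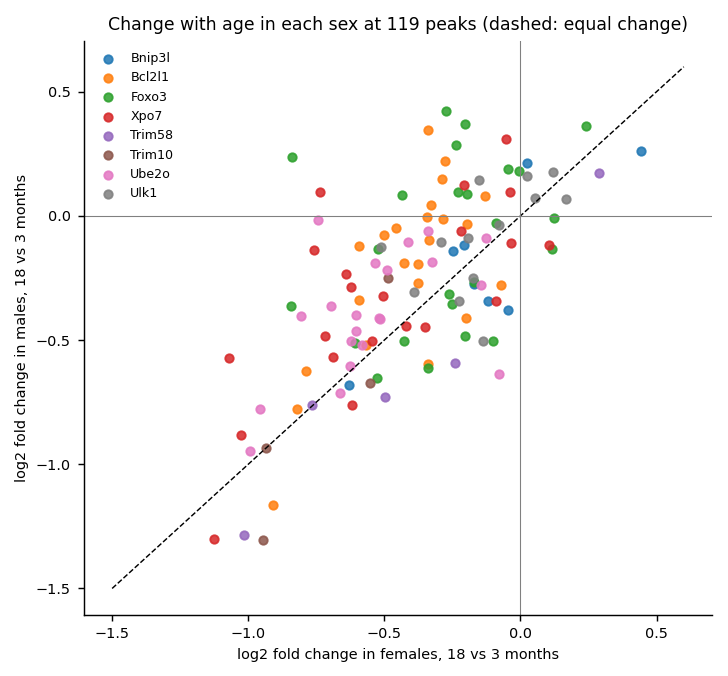
Log2 fold change of 18 over 3 months at each of the 119 peaks in females (horizontal axis) and in males (vertical axis); the dashed line marks equal change. Points lie along the line towards the lower left for the peaks called in both sexes (24), with 17 called in females alone and 4 in males alone.

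Other genes of these pathways were lower in part. Among 43 autophagy and mitophagy genes, 19 were called lower and 3 higher, with a median log2 fold change of -0.14, against 29.9% lower, 10.3% higher and -0.08 over all genes. The atg8-family gene Gabarapl2 was at 60.7 ± 4.49 CPM (SD, n = 6) against 91.7 ± 8.21 CPM, and Atg14, a subunit of the lipid kinase that acts after Ulk1, at 52.1 ± 2.67 CPM against 78.4 ± 8.11 CPM. Both had a log2 fold change of -0.59. Atg4c (0.20) and Atg7 (0.18), which process and conjugate the atg8 proteins, were higher. Of 23 ubiquitin and CTLH ligase genes, 17 were lower and 0 higher (median -0.29), led by Fbxo7 (-0.60), a substrate-binding subunit of a ubiquitin ligase, and Ubac1 (-0.57). Of 20 genes of nuclear condensation and enucleation, 13 were lower and 0 higher (median -0.22), led by the actin-binding Tpm1 (-0.47) and the nuclear transport GTPase Ran (-0.46). Of 19 FoxO targets and antioxidant genes with a peak, 8 were lower and 1 higher (median -0.16): the stress-response gene Sesn1 (-0.40) and the peroxidase Gpx1 (-0.37) were lower, and the cell cycle inhibitor Cdkn1a (0.29) higher. Of 14 BCL-2 family genes with a peak, 4 were lower and 2 higher (median -0.05), and Bcl2 itself, a survival gene like Bcl2l1, was higher at 97.1 ± 9.12 CPM against 66.2 ± 4.61 CPM (0.55, SE 0.069; edgeR adjusted p = 3.95e-06).

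The split between higher and lower calls differed between some of the scalings and methods. Over all genes the TMM fit called 1704 higher and 4927 lower, and RLE scaling 1563 and 5051. Library totals called 3120 and 3500, and scaling smoothed on abundance 3170 and 3072. DESeq2, which also differs in its model and test, called 3368 and 3423. Over all peaks the TMM fit called 7089 higher and 8689 lower, library totals 11196 and 6629, and DESeq2 6411 and 8919. With smoothed scaling the autophagy list had 11 lower and 8 higher, the enucleation list 8 and 3, the ubiquitin list 12 and 2, the FoxO list 7 and 4, and the BCL-2 list 3 and 6.

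**Figure D4:**
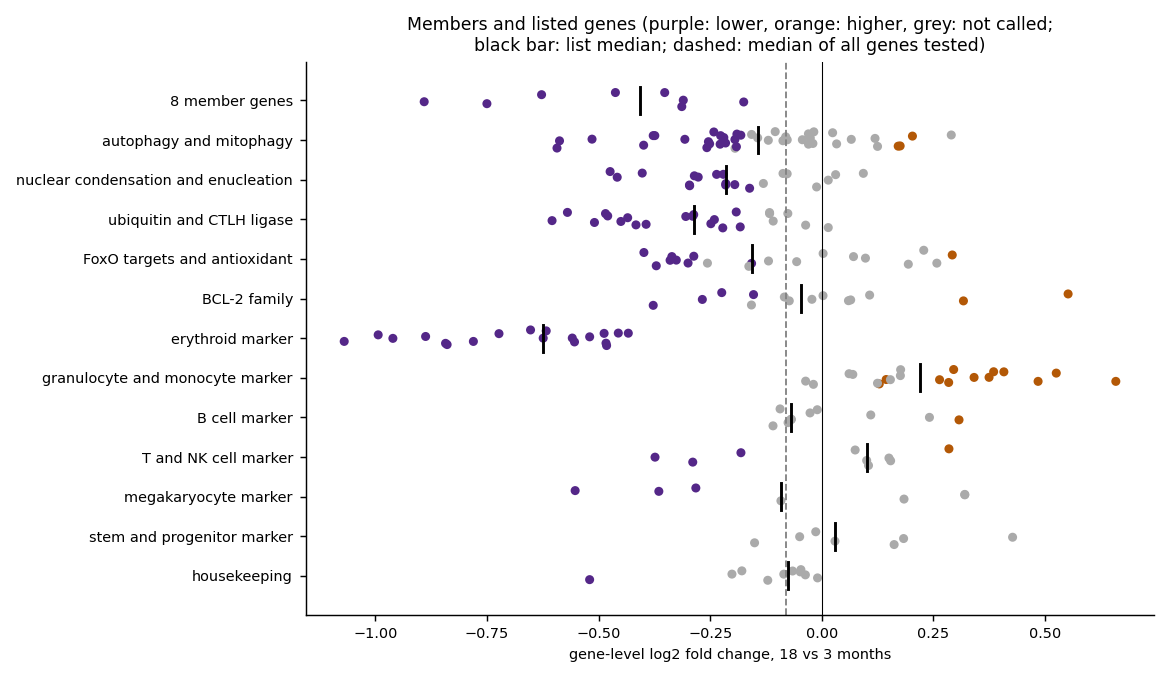
Gene-level log2 fold change of 18 over 3 months (horizontal axis) for the 8 genes and for each list of pathway and marker genes (rows); purple points were called lower, orange higher and grey not called, the black bar is the list median and the dashed line the median of all genes, -0.08. All 8 genes and all 19 erythroid markers lie below 0, and the granulocyte and monocyte markers have a median of 0.22.

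Markers of red cell precursors moved with the 8 genes. All 19 erythroid markers were called lower, with a median of -0.62, and their summed level was 2542 to 2699 CPM at 18 months and 3693 to 4419 CPM at 3 months. The anion exchanger Slc4a1 (-1.07) and Alas2, the first enzyme of heme synthesis in red cells (-0.99), led them. The 8 genes together summed to 1665 to 1765 CPM at 18 months and 2191 to 2478 CPM at 3 months. Granulocyte and monocyte markers went the other way, with 12 of 20 called higher and 0 lower, 2005 to 2285 CPM against 1643 to 2352 CPM, led by the granule proteins Ngp (0.66) and Ltf (0.53). B cell markers (0 lower and 1 higher of 11, 526.2 to 664.4 against 563.2 to 671.6 CPM) and T and NK cell markers (3 lower and 1 higher of 9, 461.6 to 523.5 against 488.5 to 543.4 CPM) overlapped between the ages in their sums. Megakaryocyte markers had 3 of 7 lower (440.5 to 455.2 against 498.4 to 531.3 CPM), and stem and progenitor markers 0 of 7 in either direction (179.1 to 213.5 against 163.7 to 195.8 CPM). Over all genes 29.9% were called lower and 10.3% higher, beside 33.3% lower for the T and NK cell markers and 42.9% for the megakaryocyte markers. Of the defining markers, Ncr1, Gp6, Mecom and Procr had no peak in their windows, nor did Cd8a and Cd8b1. Neighbouring genes of a list can share peaks (Bcl2l13 with Bid, Elane with Prtn3, Vpreb1 with Igll1, Pf4 with Ppbp, and Cd3d with Cd3e and Cd3g), and each such peak was counted once in the sums and for every gene in the calls. The part of these cell types in the differences at the 8 genes was not tested.

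**Figure D5:**
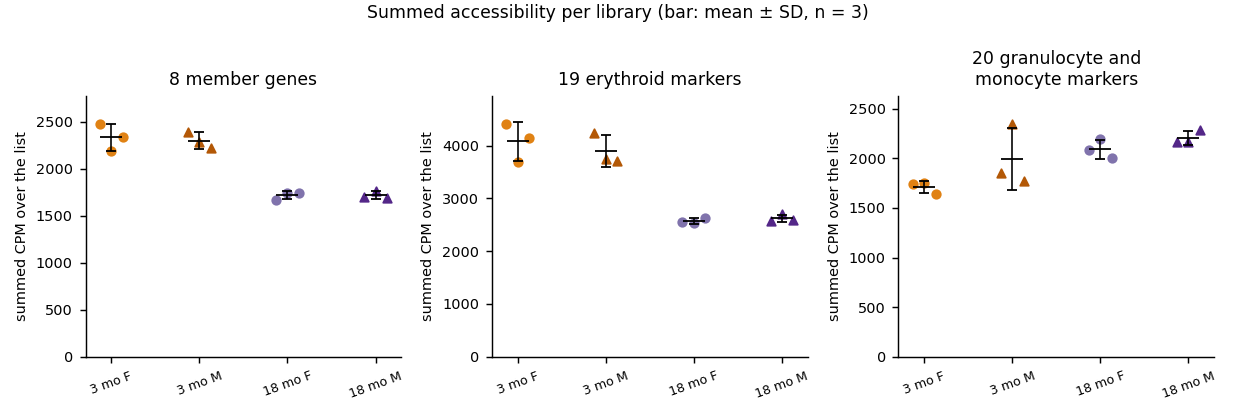
Summed CPM (vertical axis, from 0) per library for the 8 genes and for marker lists, in 4 groups of age and sex; points are libraries and bars the mean ± SD, n = 3. The 8 genes (1665 to 1765 against 2191 to 2478 CPM) and the erythroid markers (2542 to 2699 against 3693 to 4419 CPM) separate the ages without overlap.

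After the mean of each of the 4 groups was taken off, the mean log2 level of the 8 genes had a Pearson r of 0.93 with that of the erythroid markers over the 12 libraries. Before that step the marker level ran from 6.55 to 6.62 at 18 months and from 7.14 to 7.42 at 3 months. The spread behind this r therefore lay mostly among the 3-month libraries. The order of libraries was not the same in every group: at 18 months the female library 36 was the highest of its group for the 8 genes and the lowest for the markers. Between pairs of the 8 genes r ran from -0.09 to 0.85, with a median of 0.46. Of 14365 other genes with at least 10 CPM, the 5 most like the mean of the 8 were Hba-x (0.98), an embryonic alpha-type globin gene, Gm5767 (0.98), Plcl2 (0.96), Cldn13 (0.96) and Actn3 (0.96). The value of each such gene sums all peaks within 10 kb, also those of neighbouring genes, so it need not reflect the named gene. All values in a library share its depth and scaling, so these figures describe the 12 libraries and carry no test.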

How the data were processed

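Counts of reads over 75281 consensus peaks in 12 ATAC-seq libraries were deposited by the authors as whole numbers and were used unchanged. The submitters' processing notes name mm10, Trimmomatic, BWA, MACS2, DiffBind and edgeR, with no versions or roles. How reads were shifted to the cut site, whether duplicates were removed and how replicates entered the consensus are not given in the sources used here. The lowest deposited count was 1, and the 119 peaks held 16 to 1801 counts. Any PCR duplicates still present would narrow the apparent counting error. Per the labels' protocols, 50000 cells, 10 PCR cycles and 75 bp read pairs were used. Of the count columns, 0 could not be tied to a sample.

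Group, sex, number and run came from the sample labels. The lowest chi-square per degree of freedom between libraries of a group was 2.17, and 0 pairs were identical, so each library counted as a replicate.

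Gene positions came from RefSeq on GRCm38.p6, and peak positions are printed as deposited. The test took the 75164 peaks with over 1 CPM in 2 or more libraries, all 119 among them. A gene's count was the sum over the peaks in it or within 10 kb, for 16470 protein-coding genes. Counts were fitted with edgeR 4.0.16 in R 4.3.3 (glmQLFit, glmQLFTest, TMM factors) on age and sex, and with a mean per group for effects within a sex and the interaction. P-values were adjusted by Benjamini-Hochberg over all features, at 0.05. Printed means and SD are over libraries.

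Named peaks of a gene were the one nearest a listed start (or the strongest within 3 kb of an end), the strongest, and the largest called change in each direction. Of each other list, up to 2 called genes per direction were named. The 8 genes, the lists and these rules were chosen with earlier results of these data known. Alternatives were other scalings (RLE, library totals, offsets smoothed by loess on abundance or on width), no filter, DESeq2 1.42.0, leaving out each library, windows of 3 kb or the gene body alone, the strongest peak alone, and each sex fitted alone.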

Additional observations from a re-analysis of the deposited data

Results flagged for a closer look

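In 2 of 50 sets of 6 libraries of 1 age, taken over the named peaks and the gene sums, 1 library lay apart from the other 5 by Dixon's criterion, and chance gives about 1 in 20. Both were the 18-month female library 36. It read 80.4 CPM at the Bcl2l1 start peak, where the other 18-month libraries ran from 54.2 to 63.7 CPM. At the Ulk1 start peak it read 118.7 CPM, where the others ran from 89.0 to 98.5 CPM. In each case it was the highest 18-month library and lay within the range of the 3-month libraries. Among 18-month libraries it also had the largest share of a gene's counts in the start peak at Foxo3 (36.1%), Trim58 (24.5%) and Trim10 (56.1%). The same held for the strongest peak of Bnip3l (48.6%), but not for the end peaks of Xpo7 and Ube2o.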

How the results depend on the processing

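All 8 genes stayed lower at 18 months under each of 20 alternatives. The call held in 156 of 160 values, and the 4 losses were at Bnip3l, Xpo7 and Ulk1. The 17 named peaks kept their side of the threshold in 289 of 306 values, with 16 calls lost, at the 2 Ulk1 peaks, and 1 gained, at Xpo7. The number of the 119 peaks called lower was 36 to 48 under the other settings and 38 to 53 when 1 library was left out. Scaling smoothed on abundance called 47, 43 of them shared with the TMM fit. Library totals called 1 peak higher in place of 0. The female count of lower peaks, 41, lay between 20 and 44 with 1 library left out, and the male count went from 28 to 18 with scaling smoothed on abundance. The number of peaks higher in males than in females went from 0 to 1 without the 3-month male library of run 30, and lay between 0 and 1 over all such fits. Genes called higher in the 5 pathway lists numbered 16 with library totals, 22 with scaling smoothed on abundance, 17 in DESeq2 and between 3 and 13 with 1 library left out. The cause of these moves was not tested. With sequencing run as a block, chosen after seeing the data, sex again gave 0 called peaks and genes, from the 2 runs that hold both sexes. No paired analysis was possible because no replicate number was shared between the groups, and no run holds both ages.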
